A study of Mus musculus with 8 samples.

Results

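Cadherin and protocadherin transcripts were followed in MB21 cells, a mouse medulloblastoma line with a mutation in Ptch, after 5 days with the compound DS-1-38 or with its DMSO vehicle. Genes were taken by name and annotation: every protein-coding gene called Cdh or Pcdh with a number, and every gene of the clustered Pcdha, Pcdhb and Pcdhg families. That gave 91 of the 55416 gene identifiers in the table, namely 23 Cdh genes, 11 protocadherin genes that stand alone and 57 clustered protocadherin genes. Pcdhgb8 has a matching name but is annotated as a polymorphic pseudogene and is not among the 91.

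Messenger RNA was sequenced from 4 libraries of cells given 10 uM DS-1-38, called DS38, and 4 libraries of cells given vehicle, called DMSO. All came from the same Ptch mutant line, cultured in suspension with B27, so the mutation is shared by both groups. Whether a group's 4 libraries stem from different cultures is not stated. The p-values therefore measure the spread between these libraries, which may be technical. Library totals ran from 17142397 to 28476019 counts in DS38 and from 18878556 to 25582159 counts in DMSO, and each within-group pair of libraries exceeded sampling error (chi-square per degree of freedom 4.25 to 7.59 within DMSO). Within DS38, libraries 1 and 2 stood apart from 3 and 4, with 10.5 to 18.5 across the split, 4.29 between 1 and 2 and 3.98 between 3 and 4, against 15.0 or more between groups. A single identifier without a symbol made up 56.6% to 77% of the chi-square across the split, which was 3.16 to 6.79 without it. Levels are given in CPM, which are counts scaled to a common library size. All 7 markers of the granule neuron lineage were expressed, with a summed level of 1681 to 1736 CPM in DS38 and 1426 to 1498 CPM in DMSO. These markers moved with the comparison: 5 of the 7 rose, among them Atoh1 (1.52-fold), Barhl1 (1.64-fold) and Meis1 (1.46-fold), and Zic1 fell (all called in edgeR). Their part in the results on cadherins was not tested. Markers of several other cell types were scarce, with summed levels of at most 1.79 CPM for 6 endothelial genes, at most 0.173 CPM for 5 microglial genes and at most 0.937 CPM for 5 epithelial genes in any library, and the endothelial genes Tie1 and Cldn5 had no count. Of the endothelial genes, Tek was called higher at 0.747 ± 0.104 CPM in DS38 and 0.318 ± 0.336 CPM in DMSO (SD, n = 4 each), with overlap. Oligodendrocyte lineage genes summed to 12.8 to 15.0 CPM in DS38 and 12.4 to 15.3 CPM in DMSO. Astrocyte genes summed to 348 to 372 CPM in DS38 and 342 to 384 CPM in DMSO, almost all of it from the glutamate transporter genes Slc1a2 and Slc1a3, while Aqp4 averaged 0.0421 CPM in DS38 and 0.0128 CPM in DMSO and Gfap, called higher, 3.07 CPM in DS38 and 1.83 CPM in DMSO. Fibroblast and meningeal genes summed to 53.2 to 57.2 CPM in DS38 and 74.2 to 78.7 CPM in DMSO. Of this, Pdgfra alone, called lower, averaged 51.1 CPM in DS38 and 73.3 CPM in DMSO. Col1a1 was called higher at 0.798 CPM in DS38 and 0.233 CPM in DMSO, and Dcn averaged 0.0565 CPM in DS38 and 0.0336 CPM in DMSO. Neither Tek nor Col1a1 could pass the filter on low counts through its DMSO libraries alone, so both calls are given as a description.

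Cadherins are calcium-dependent adhesion proteins that join neighbouring cells, and the classical ones are tied to the actin skeleton inside the cell by catenins. Classical cadherins fall into types I and II, which largely pair with their own type. Protocadherins adhere more weakly, and many of them serve recognition and sorting between neurites. The clustered protocadherin genes are arrays in which each variable exon has its own promoter. Alpha and gamma variable exons are spliced to constant exons shared by their whole family, whereas each beta gene is a complete coding unit of its own. In neurons, most clustered isoforms are chosen at random from cell to cell, and the C-type isoforms (Pcdhac1, Pcdhac2, Pcdhgc3, Pcdhgc4 and Pcdhgc5) are mostly exempt from that choice.

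The constant exons bear on what the counts mean. In the GENCODE M21 annotation, whose exon lengths equal those of the deposited table for all 91 genes, the share of a gene's exonic bases that no other gene on its strand covers had a median of 46.5% for alpha members, 55.4% for gamma members and 100% for beta members. Pcdha1, Pcdha8 and Pcdhga10 had 0 counts in all 8 libraries although they are annotated with the same constant exons as well-counted relatives, so reads of those exons were not added to every gene. How reads shared between genes were treated is not given in the sources used here, and where they were dropped the level per length of alpha and gamma genes is understated.

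Of the 91 genes, 48 passed the filter on low counts, 38 had some counts but fell under it, and 5 had no count in any library. The 5 were Cdh19, Cdh26, Pcdha1, Pcdha8 and Pcdhga10, and 0 counts allow at most 0.175 CPM in the shallowest library (3 counts, counting error only). In the annotation every base of Pcdhga10 is also covered by another gene on one strand or the other, so a counting that ignores strand and drops shared reads could give it no count. Of the 38 genes under the filter, 27 (71.1%) had a higher mean in DS38, and of all 5073 protein-coding genes with some counts under the filter 72.9% did.

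Among the 91 genes, ranked by level per length, Cdh20 stood highest. This type II cadherin gene was at 58.2 ± 1.12 CPM per kilobase in DS38 and 49.1 ± 0.747 in DMSO (SD, n = 4 each, as for all values given as mean ± SD here). The length is that of all annotated exons of a gene, so the order depends on the annotation. Cdh2, the gene of N-cadherin, followed at 23.3 ± 0.580 CPM per kilobase in DS38 and 22.2 ± 0.584 in DMSO. The next places were held by Pcdh18, a delta protocadherin gene, at 18.9 ± 0.480 CPM per kilobase in DS38 and 15.5 ± 1.08 in DMSO, and by Cdh4, the gene of R-cadherin, at 16.9 ± 0.625 CPM per kilobase in DS38 and 17.5 ± 0.703 in DMSO. Pcdh18 stood above Cdh4 in DS38 and below it in DMSO. After these 4 came Pcdhgc3 at 7.25 ± 0.333 CPM per kilobase in DS38 and 6.87 ± 0.351 in DMSO, and Pcdhb4 at 6.22 ± 0.537 in DS38 and 5.67 ± 0.124 in DMSO. The place of Pcdhgc3 is not fixed, because its level depends on how much of its length could receive counts. With the same counts set over the 3380 bases it shares with no gene on its strand, it would be at 11.8 CPM per kilobase in DS38 and 11.2 in DMSO. Only 1821 of its 5499 bases are shared with no gene on either strand, and the strand setting is not given. Over those 1821 bases its level would be higher still, above Pcdh18 and Cdh4.

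**Figure D1:**
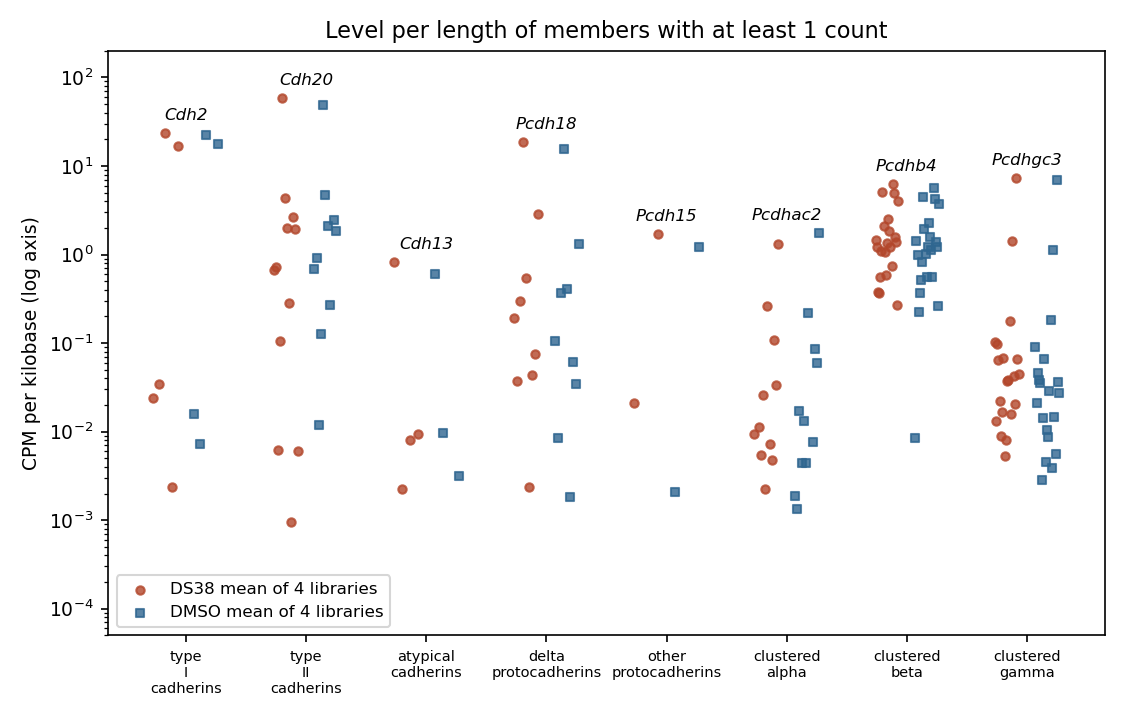
Level of each cadherin family gene with at least 1 count, as the mean CPM per kilobase of 4 DS38 libraries (circles) and 4 DMSO libraries (squares) on a log axis, by gene group, with the highest member of each group named. Cdh20 stands highest at 58.2 CPM per kilobase in DS38 and 49.1 in DMSO. Beta members other than Pcdhb1 lie between 0.223 (Pcdhb12, DMSO) and 6.22 (Pcdhb4, DS38). Pcdhb1, with 2 counts over the 8 libraries, and many alpha and gamma members trail down to a few counts. A mean of 0 cannot be drawn on a log axis and is left out.

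Promoter windows of 4 genes are shown because these are the 4 most counted of the genes that rose and had a window here, from the type II, delta and other protocadherin groups. Each runs from 250 bases before to 50 after the annotated start, taken from RefSeq on GRCm38.p6, 5′ to 3′ on the gene's strand, whereas the submitters' processing notes name GRCm39 for mouse. Capitals mark matches to the E-box CAGCTG, a site of bHLH factors, and to the TATA box TATAAA, searched on both strands. Pcdh9 has an overlapping window that starts 10 bases away and is not shown.
Pcdh9, chr14:93890620-93890919, minus strand: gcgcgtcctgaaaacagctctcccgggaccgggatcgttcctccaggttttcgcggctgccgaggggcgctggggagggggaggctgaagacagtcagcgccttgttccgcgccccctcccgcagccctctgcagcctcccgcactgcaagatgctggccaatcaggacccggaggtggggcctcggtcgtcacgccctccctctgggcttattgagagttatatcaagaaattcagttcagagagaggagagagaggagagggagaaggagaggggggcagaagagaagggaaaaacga
Pcdh18, chr3:49757267-49757566, minus strand: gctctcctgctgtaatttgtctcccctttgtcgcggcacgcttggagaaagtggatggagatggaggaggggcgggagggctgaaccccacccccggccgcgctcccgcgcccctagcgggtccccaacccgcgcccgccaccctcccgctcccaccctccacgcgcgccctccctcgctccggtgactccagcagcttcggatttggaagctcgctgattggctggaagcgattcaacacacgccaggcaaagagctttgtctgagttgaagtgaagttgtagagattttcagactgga
Pcdh15, chr10:73821617-73821916, plus strand: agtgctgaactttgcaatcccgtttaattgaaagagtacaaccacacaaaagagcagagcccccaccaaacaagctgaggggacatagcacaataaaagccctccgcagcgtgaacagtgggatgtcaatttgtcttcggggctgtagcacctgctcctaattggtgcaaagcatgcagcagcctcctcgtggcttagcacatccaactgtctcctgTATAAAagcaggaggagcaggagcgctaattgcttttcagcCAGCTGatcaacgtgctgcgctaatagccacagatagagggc
Cdh20, chr1:104768270-104768569, plus strand: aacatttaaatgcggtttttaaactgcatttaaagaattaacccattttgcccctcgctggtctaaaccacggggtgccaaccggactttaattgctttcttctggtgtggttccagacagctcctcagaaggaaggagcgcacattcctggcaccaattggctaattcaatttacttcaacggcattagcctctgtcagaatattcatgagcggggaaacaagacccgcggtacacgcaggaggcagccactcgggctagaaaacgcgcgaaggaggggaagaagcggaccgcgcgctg

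Members on chromosome 18, which are all clustered protocadherins, Cdh2, Pcdh1 and Pcdh12, were left out of the motif search. The 25 windows found for 22 of the members on other chromosomes, the printed ones included, were searched for these motifs and for GACCACCCA. The last is a consensus bound by Gli factors, and both strands were again searched. The Gli consensus was in 0 of the 25 windows and in 0.253% of 32851 mouse windows of the same length. The 32851 windows were not restricted by chromosome. CAGCTG was in 3 of the 25 (Cdh9, Cdh12 and Pcdh15) and in 16.3% of all windows, and TATAAA was in 2 (Pcdh8 and Pcdh15) and in 13.6% of all. Of the 4 printed windows, those of Pcdh9, Pcdh18 and Cdh20 held neither motif, and that of Pcdh15 held both. GC content was 62.3% for Pcdh9 and 63.0% for Pcdh18, against 50.7% for both Pcdh15 and Cdh20, with a median of 52.7% over all windows.

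The comparison asks which cadherin and protocadherin transcripts stand at another level once cells have had DS-1-38 for 5 days. Among 48 tested members there were 12 that rose (with Pcdh10, which passed the filter only through DS38), 2 that fell and 34 that missed the threshold of an adjusted p under 0.05 (edgeR's quasi-likelihood test, Benjamini-Hochberg over all 15133 genes tested). The 14 called members are 29.2% of those tested, against 39.5% of all genes tested (18.8% higher and 20.7% lower) and 44.7% of protein-coding genes tested (21.5% higher and 23.2% lower). As a family, cadherin genes were thus called no more often than other genes. Their median log2 fold change was 0.13, against -0.01 over all genes tested, and their calls lay mostly in 1 direction. Without DS38 libraries 1 and 2, 6 members were called higher and 2 lower, and without DS38 libraries 3 and 4, 14 were called higher and 1 lower. DS38 libraries lay wholly above DMSO libraries for 11 of the 48 and wholly below for 2, against 17.3% and 18.8% of all genes tested. All fold changes are DS38 over DMSO. In bulk RNA, fewer cells of a kind and less RNA per cell cannot be told apart.

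**Figure D2:**
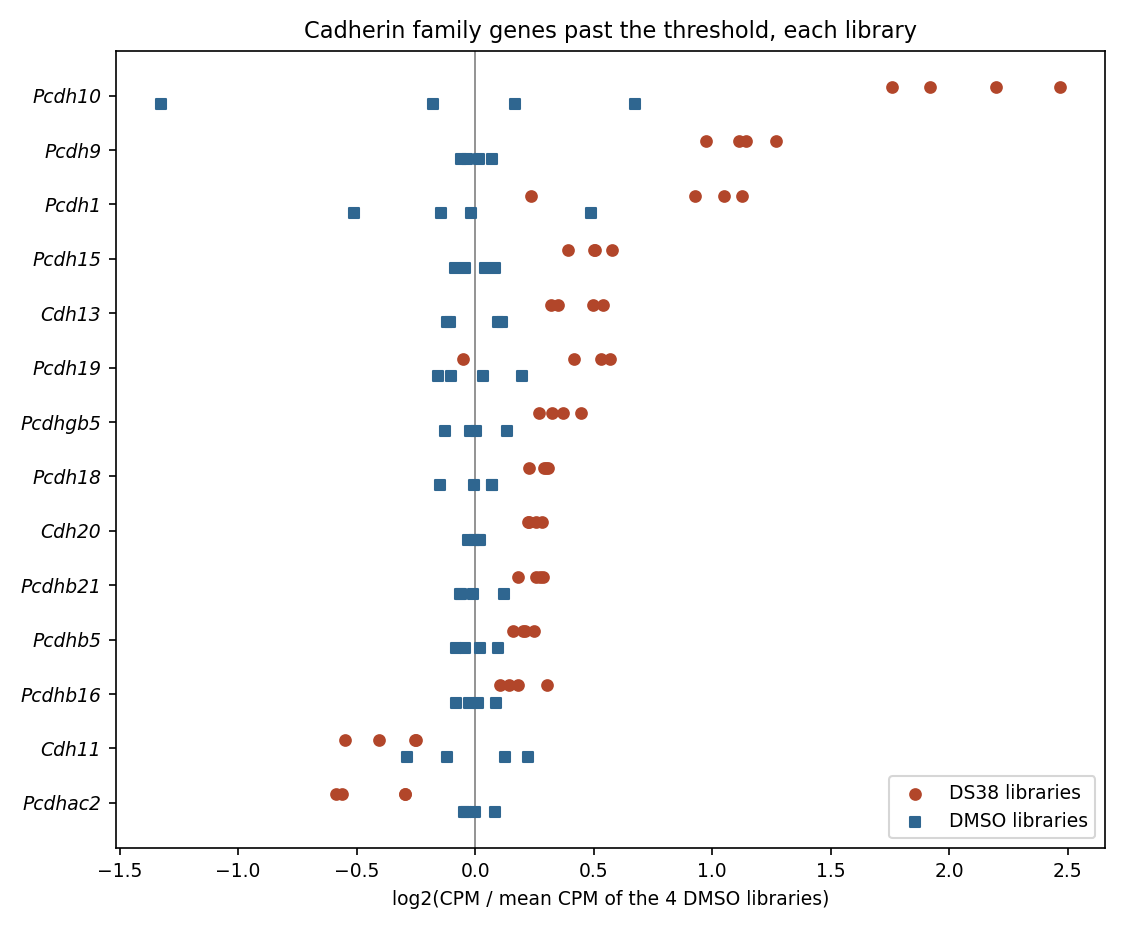
Each library of the 14 genes past the threshold, as log2 of its CPM over the mean CPM of the 4 DMSO libraries. DS38 libraries (circles, upper row of each gene) lie apart from DMSO libraries (squares, lower row) for every gene except Pcdh1, Pcdh19 and Cdh11, where the groups overlap.

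Non-clustered protocadherins held the largest rises. Of 9 delta protocadherin genes 7 were tested, and 5 rose and 0 fell. The 5 include Pcdh10, which passed the filter only through DS38. They are 71.4% of those tested, against 18.8% of all genes tested called higher. Pcdh9, a gene of the delta-1 kind that is expressed widely in the brain, was at 17.5, 19.2, 21.4 and 19.6 CPM in DS38, against 8.66, 9.0, 8.53 and 9.34 CPM in DMSO. Its lowest DS38 library lay well above its highest DMSO library. It rose 2.18-fold (1.12 ± 0.079 SE in log2 units, adjusted p = 3.33e-09 in edgeR). In DS38 it took 14.6% of the delta group's summed CPM, against 8.61% in DMSO.

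Pcdh18, of the delta-2 kind, was the best counted protocadherin, at 103, 102, 103 and 97.5 CPM in DS38, against 87.6, 75.3, 83.1 and 87.6 CPM in DMSO. All DS38 libraries were higher than all DMSO libraries, by a smaller step than for Pcdh9. The log2 fold change was 0.28 ± 0.048 SE (edgeR adjusted p = 0.000152).

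Pcdh15 encodes a protein best known from the tip links of inner ear hair cells, where it pairs with the product of Cdh23. It was at 43.2, 41.0, 41.1 and 38.0 CPM in DS38, against 27.3, 28.1, 29.8 and 30.7 CPM in DMSO. The groups did not overlap, and the log2 fold change was 0.50 ± 0.056 SE (edgeR adjusted p = 1.43e-06). Its partner Cdh23 had 14 counts over the DS38 libraries and 5 over the DMSO libraries and was under the filter.

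Pcdh10 and Pcdh1 also rose, both at low levels. Pcdh10, a delta-2 gene, had 18, 15, 8 and 12 counts in DS38, against 3, 5, 1 and 3 counts in DMSO, or 0.589 ± 0.129 CPM in DS38 and 0.136 ± 0.0679 CPM in DMSO. It passed the filter only through the DS38 libraries, in which it is high, so its call (log2 fold change 2.04 ± 0.42 SE, edgeR adjusted p = 0.000777) is given as a description, and it was tested in 14 of 19 other settings. Pcdh1, of the delta-1 kind and known from epithelia as well as brain, was at 1.93, 2.03, 1.09 and 1.77 CPM in DS38, against 0.842, 1.30, 0.652 and 0.919 CPM in DMSO. DS38 replicate 3 lay below DMSO replicate 2, and the log2 fold change was 0.88 ± 0.25 SE (edgeR adjusted p = 0.00893). The Pcdh1 call was lost without DS38 libraries 1 and 2 (adjusted p = 0.177). The share of nearly silent genes that were higher in DS38 is given above, and its part in these 2 rises was not tested.

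Pcdh19, a delta-2 gene whose mutation causes an epilepsy in humans, was at 6.24, 6.40, 5.76 and 4.16 CPM in DS38, against 4.41, 3.87, 4.02 and 4.95 CPM in DMSO. DS38 replicate 4 fell among the DMSO libraries. The log2 fold change was 0.40 ± 0.14 SE (edgeR adjusted p = 0.0315). The call ended, by adjusted p, on leaving out DS38 replicate 1 (0.0766), 2 (0.121) or 3 (0.0555) or DMSO replicate 2 (0.0975) or 3 (0.0815), without DS38 replicates 1 and 2 together (0.453), and with an offset for gene length (0.0530).

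The remaining delta genes did not pass. Pcdh17 was at 3.91 ± 0.724 CPM in DS38 and 4.71 ± 0.420 CPM in DMSO (log2 fold change -0.25, edgeR adjusted p = 0.171), and it was called lower with the gene length offset (log2 fold change -0.35, adjusted p = 0.0334) and without DS38 libraries 1 and 2 (-0.51, 0.0292). Pcdh7 was at 0.462 ± 0.134 CPM in DS38 and 0.652 ± 0.0481 CPM in DMSO (edgeR adjusted p = 0.189). In CPM every DS38 library of Pcdh7 was below every DMSO library, at 8 to 14 counts in DS38 and 11 to 16 in DMSO. Pcdh8 and Pcdh20 were under the filter, with 30 and 1 counts over the DS38 libraries and 13 and 1 over the DMSO libraries. Pcdh12, known from endothelium, had 12 counts over the DS38 libraries and 1 over the DMSO libraries. Without the filter it was called higher (edgeR adjusted p = 0.0487), with at most 8 counts in any library.

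**Figure D3:**
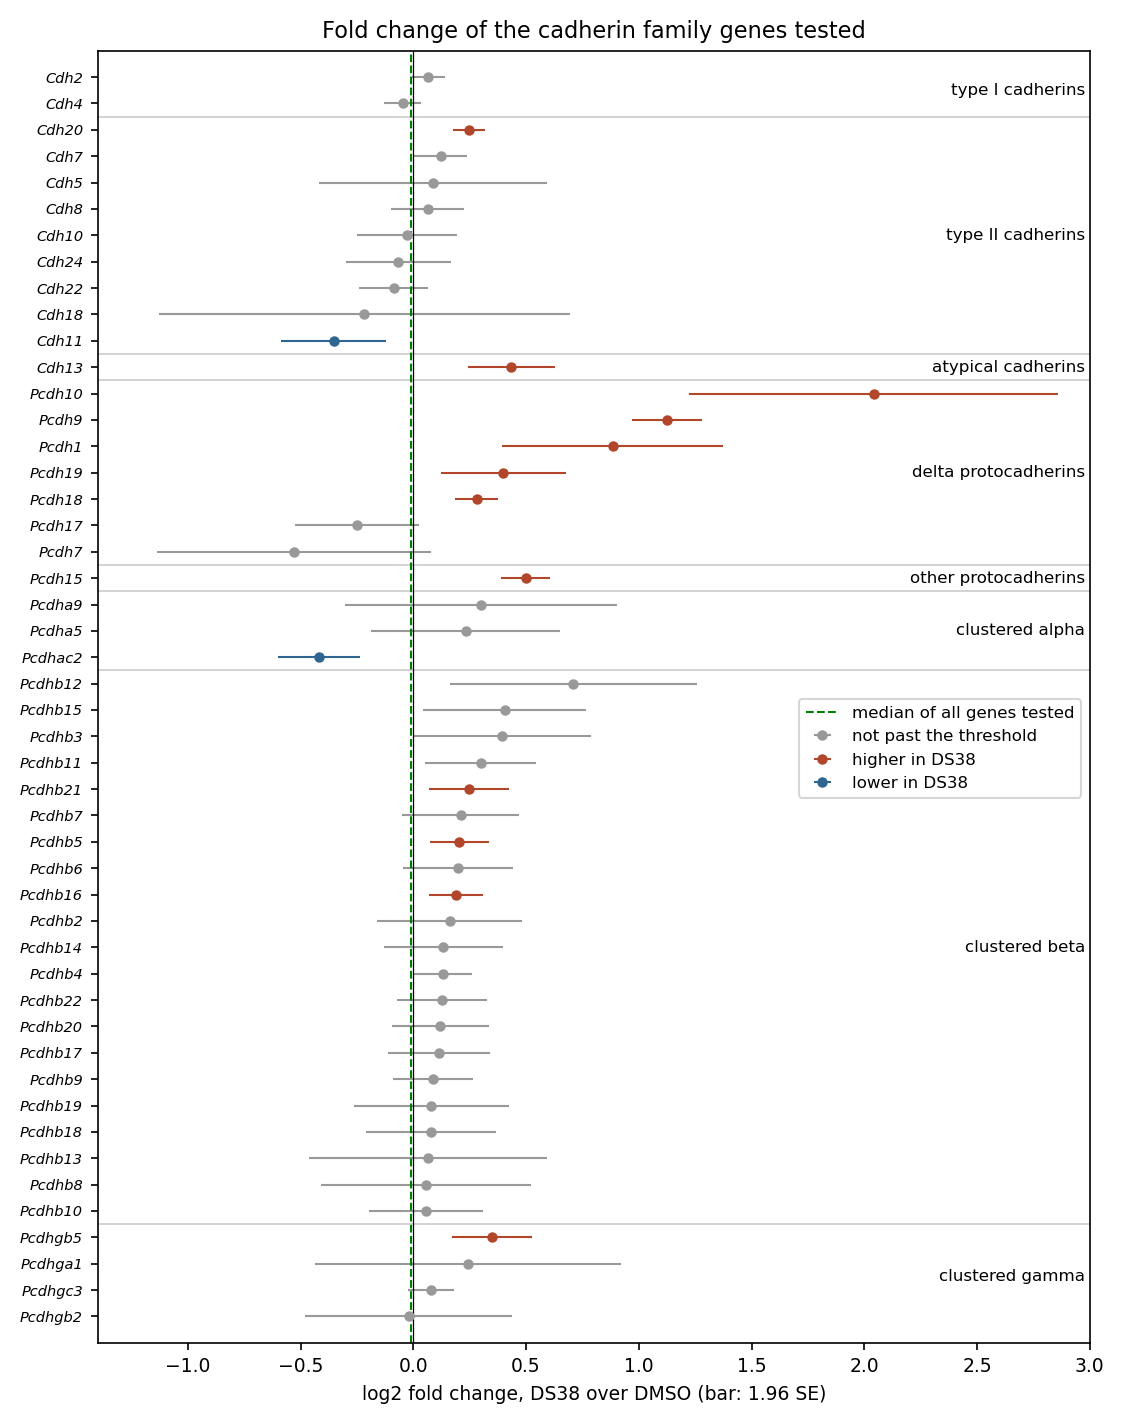
Log2 fold change, DS38 over DMSO, of the 48 cadherin family genes tested, by gene group, with bars for the 95% interval and the median of all genes tested as a dashed line. Of the 12 genes past the threshold and higher, 6 are among the 8 non-clustered protocadherins tested. Those 6 are 75% of the 8, against 18.8% of all genes tested called higher. They include Pcdh10, which passed the filter only through DS38. Cdh2 and Cdh4 lie close to 0 with short bars.

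Type I cadherins did not pass the threshold. Cdh2 was at 193, 190, 182 and 187 CPM in DS38, against 173, 181, 184 and 180 CPM in DMSO, and the groups overlapped. Its log2 fold change was 0.07 with a 95% interval of -0.01 to 0.14 (edgeR adjusted p = 0.170). With library totals alone as the scale it was called higher (log2 fold change 0.13, adjusted p = 0.0139). Cdh4 was at 127, 116, 125 and 124 CPM in DS38, against 128, 121, 126 and 133 CPM in DMSO, a log2 fold change of -0.05 with an interval of -0.13 to 0.04 (edgeR adjusted p = 0.398). With the gene length offset Cdh4 was called lower (log2 fold change -0.11, adjusted p = 0.0406), and with library totals alone its value was 0.01. Cdh1 and Cdh3, the genes of E- and P-cadherin, and Cdh15, the gene of M-cadherin, were nearly silent, with 10, 1 and 11 counts over the DS38 libraries and 6, 0 and 2 over the DMSO libraries.

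Among type II cadherins 1 of 9 tested rose and 1 fell (22.2% called, against 39.5% of all genes tested). Cdh20 was at 235, 230, 230 and 239 CPM in DS38, against 199, 193, 200 and 196 CPM in DMSO. The groups were far apart for the spread within them, and the rise was 1.19-fold (0.25 ± 0.036 SE in log2 units, adjusted p = 3.11e-05 in edgeR). It made up 74.6% of the summed type II CPM in DS38 and 71% in DMSO.

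Cdh11, the gene of OB-cadherin, known from osteoblasts and mesenchyme, was at 6.15, 6.85, 6.86 and 5.57 CPM in DS38, against 7.5, 8.91, 9.51 and 6.69 CPM in DMSO. DMSO replicate 4 lay within the DS38 values. It fell by 0.35 ± 0.12 SE in log2 units (edgeR adjusted p = 0.0243). The call ended, by adjusted p, on leaving out DS38 replicate 1 (0.0511) or 4 (0.0623) or DMSO replicate 2 (0.0817) or 3 (0.0897), without both DS38 libraries 1 and 2 (0.0589) or both 3 and 4 (0.0826), and with library totals alone (0.0560). Of the fibroblast and meningeal markers given above, Pdgfra was also lower in DS38. Col1a1, at a low level and given as a description only, was higher. Their part in the fall of Cdh11 was not tested.

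The other type II genes tested did not pass, with log2 fold changes from -0.22 (Cdh18) to 0.12 (Cdh7). Cdh7, the next most counted of the type, was at 26.7 ± 1.21 CPM in DS38 and 24.6 ± 1.46 CPM in DMSO (edgeR adjusted p = 0.120), and was called higher with library totals alone (adjusted p = 0.0254). Cdh22 was at 16.1 ± 1.15 CPM in DS38 and 17.2 ± 1.60 CPM in DMSO (edgeR adjusted p = 0.397). Cdh5, the VE-cadherin gene of endothelium, was at 1.18 ± 0.198 CPM in DS38 and 1.13 ± 0.345 CPM in DMSO (edgeR adjusted p = 0.816). Cdh6, Cdh9, Cdh12 and Cdh19 were silent or under the filter, with at most 10 counts over the 8 libraries.

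Of the atypical cadherins, Cdh13 alone was well enough counted to be tested. It encodes T-cadherin, which is held to the membrane by a lipid anchor and lacks the tail that binds catenins. Cdh13 was at 9.59, 9.88, 8.64 and 8.48 CPM in DS38, against 7.34, 6.30, 6.25 and 7.25 CPM in DMSO. The groups did not overlap, and the log2 fold change was 0.44 ± 0.098 SE (edgeR adjusted p = 0.00174). Without DS38 libraries 1 and 2 the call was lost (0.33, adjusted p = 0.0628). Cdh16 and Cdh17 had at most 4 counts over the 8 libraries.

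Most beta genes were detected in these bulk libraries, which do not show whether single cells express them together. Of 22 beta members 21 were tested, 3 rose and 0 fell. The 3 are 14.3% of those tested, against 18.8% of all genes tested called higher and 39.5% called in either direction. All 21 had a log2 fold change above 0, from 0.06 to 0.71 with a median of 0.13, whereas 7348 of the 15133 genes tested had one above 0. The count above 0 was 18 to 21 of 21 without any 1 library and 18 of 21 without both libraries numbered 1. It was 14 of 21 without DS38 libraries 1 and 2 and 21 of 21 without DS38 libraries 3 and 4. The beta genes lie in 1 array and resemble each other in sequence, and how reads that match several places were treated is not given, so their values may not be independent. Summed over the family, beta genes were at 173, 163, 164 and 150 CPM in DS38, against 148, 137, 141 and 154 CPM in DMSO. DS38 replicate 4 lay below DMSO replicate 4, so the groups overlapped on the sum.

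The 3 risers were Pcdhb16, Pcdhb5 and Pcdhb21, which encode adhesion proteins of the same build. Pcdhb16 was at 28.9, 25.8, 26.5 and 25.1 CPM in DS38, against 22.9, 22.1, 23.6 and 24.9 CPM in DMSO (0.19 ± 0.061 SE in log2 units, adjusted p = 0.0213 in edgeR). Pcdhb5 was at 17.4, 18, 16.9 and 17.5 CPM in DS38, against 16.2, 14.7, 14.3 and 15.4 CPM in DMSO (0.20 ± 0.067 SE in log2 units, adjusted p = 0.0210 in edgeR). Pcdhb21 was at 8.87, 8.33, 8.76 and 8.95 CPM in DS38, against 7.98, 7.04, 7.01 and 7.30 CPM in DMSO (0.25 ± 0.090 SE in log2 units, adjusted p = 0.0375 in edgeR). Each of the 3 had no overlap between the groups, by a narrow margin.

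None of these 3 calls held throughout. That of Pcdhb16 was lost without DS38 replicate 1 (adjusted p = 0.0849) or DMSO replicate 2 (0.0743). That of Pcdhb5 was lost without DS38 replicate 2 (0.0649) or either of DMSO replicates 2 (0.0610) and 3 (0.0585), and without the filter (0.0688). That of Pcdhb21 was lost without DMSO replicates 2 (0.0976), 3 (0.0816) or 4 (0.0704) or DS38 replicates 1 (0.0743), 3 (0.0593) or 4 (0.0672), in DESeq2 (0.0732), without the filter (0.120) and with the gene length offset (0.0623). Without DS38 libraries 1 and 2 all 3 calls were lost (0.214 for Pcdhb16, 0.173 for Pcdhb5 and 0.120 for Pcdhb21), and without 3 and 4 that of Pcdhb21 was (0.120).

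Pcdhb4 had the highest beta level per length and was at 24.4, 21.5, 25.2 and 21.4 CPM in DS38, against 21.4, 20.4, 21.3 and 21.2 CPM in DMSO. Its DS38 libraries were all higher by a slight margin, and it did not pass (log2 fold change 0.13, edgeR adjusted p = 0.122), except with library totals alone (adjusted p = 0.0267). Pcdhb12 had the largest beta value, a log2 fold change of 0.71, at 1.15 ± 0.351 CPM in DS38 and 0.677 ± 0.175 CPM in DMSO (edgeR adjusted p = 0.0512). It passed without DMSO replicate 2 (adjusted p = 0.0357), DS38 replicate 2 (0.0445) or DS38 replicates 1 and 2 (0.0388), with DESeq2 size factors (0.0480), with library totals alone (0.0341) and with the gene length offset (0.0450), and an antisense gene covers part of its exon in the annotation. Pcdhb1 was the exception among beta genes, with 0 counts over the DS38 libraries and 2 over the DMSO libraries.

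**Figure D4:**
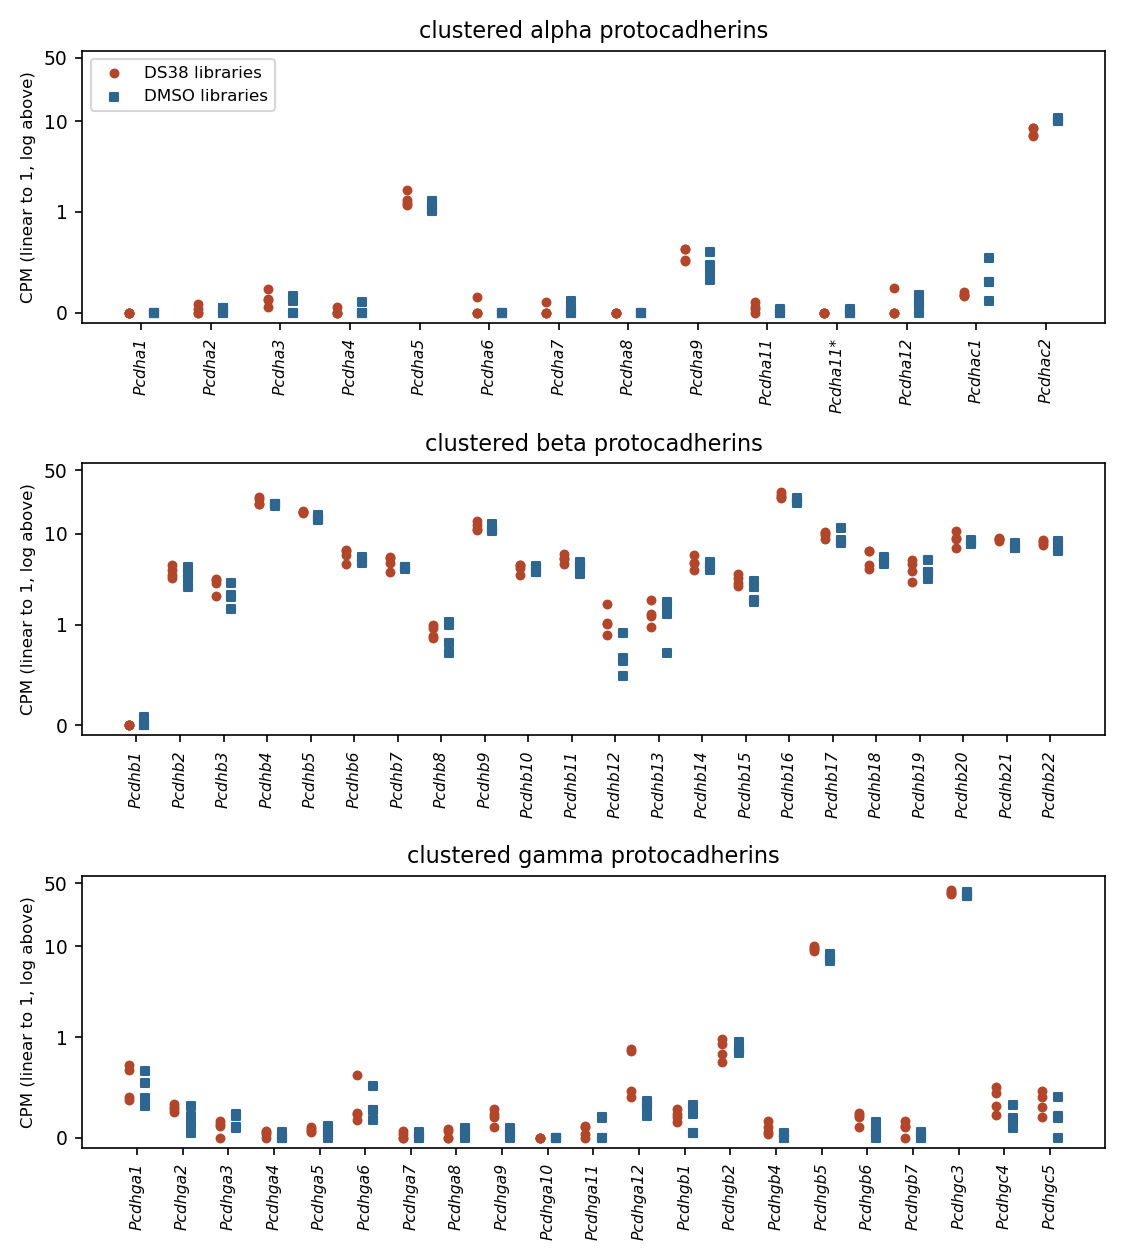
CPM of the 57 clustered protocadherin genes in each DS38 library (circles, left) and each DMSO library (squares, right), on an axis that is linear up to 1 CPM and logarithmic above. Nearly all beta genes stand near or above 1 CPM, whereas the alpha and gamma families are carried by Pcdhac2, Pcdhgc3 and Pcdhgb5. The asterisk marks the second of the identifiers that the annotation names Pcdha11.

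The alpha family was nearly silent except for its last gene. Pcdhac2, a C-type isoform, held 75.6% of the family's summed CPM in DS38 and 82.6% in DMSO. It was at 8.46, 8.46, 7.03 and 6.92 CPM in DS38, against 10.4, 11.0, 10.1 and 10.1 CPM in DMSO. The groups did not overlap. It fell by 0.42 ± 0.094 SE in log2 units, or 1.34-fold (edgeR adjusted p = 0.00167), and was the only clustered gene to fall.

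Other alpha genes carried few counts. Pcdha5 was at 1.38 ± 0.239 CPM in DS38 and 1.15 ± 0.131 CPM in DMSO (edgeR adjusted p = 0.416), and Pcdha9 at 0.575 ± 0.0651 CPM in DS38 and 0.454 ± 0.117 CPM in DMSO (edgeR adjusted p = 0.471). The remaining 11 of 14 were under the filter, with at most 42 counts over the 8 libraries (Pcdhac1, with 16 in DS38 and 26 in DMSO). Because the handling of constant-exon reads is not given, these counts do not measure the family as a whole.

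The gamma family rested on Pcdhgc3 and Pcdhgb5. Pcdhgc3, another C-type isoform, was at 42.3, 40.2, 38.6 and 38.3 CPM in DS38, against 39.8, 35.9, 36.3 and 39.0 CPM in DMSO, and the groups overlapped. Its log2 fold change was 0.08 with an interval of -0.02 to 0.18 (edgeR adjusted p = 0.243), and it was called higher with library totals alone (adjusted p = 0.0438). Of the C-type genes tested, Pcdhac2 was called lower and Pcdhgc3 was not called, and the difference between them was not tested.

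Pcdhgb5 was at 10.2, 9.01, 9.68 and 9.37 CPM in DS38, against 7.38, 8.21, 6.85 and 7.5 CPM in DMSO. No DS38 library was as low as any DMSO library. It rose by 0.35 ± 0.091 SE in log2 units (edgeR adjusted p = 0.00529). Pcdhgb8, the pseudogene set aside by the rule, was at 2.27 ± 0.232 CPM in DS38 and 1.76 ± 0.257 CPM in DMSO and did not pass (edgeR adjusted p = 0.0993).

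The other gamma genes were low. Pcdhga1 and Pcdhgb2 were tested and did not pass (edgeR adjusted p = 0.611 and 0.954), and 17 of 21 were under the filter or without counts. Pcdhga12 had 62 counts over the DS38 libraries and 26 over the DMSO libraries with no overlap in CPM, and it was called higher without the filter (log2 fold change 1.15, edgeR adjusted p = 0.0196). An antisense gene covers part of its exons, so these reads may not all be its own.

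Gene length was compared because cadherin genes have long transcripts. Over all genes tested, the median log2 fold change was -0.13 among the shortest genes and 0.05 among the longest, taking quartiles of length, and 18 of the 48 members lay in the longest quartile and 0 in the shortest. With an offset for length, 11 members were called higher and 4 lower, and the members' median was 0.09 against -0.03 over all genes. The rises of Pcdh9, Pcdh18, Pcdh10, Pcdh1, Pcdh15, Cdh13, Cdh20, Pcdhgb5, Pcdhb16 and Pcdhb5 and the falls of Pcdhac2 and Cdh11 were called there too. Those of Pcdh19 and Pcdhb21 were lost there.

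Catenins, the partners of classical cadherins inside the cell, mostly rose. Of 7 genes 6 were tested, and 5 rose and 0 fell. The 5 are 83.3% of those tested, against 18.8% of all genes tested called higher. Jup, the gene of plakoglobin, was at 14.7, 12.5, 14.7 and 12.0 CPM in DS38, against 8.34, 7.0, 7.99 and 7.60 CPM in DMSO (0.80 ± 0.094 SE in log2 units, adjusted p = 2.86e-06 in edgeR). Ctnna2, the alpha-catenin of neurons, was at 52.5, 52.1, 53.4 and 50.8 CPM in DS38, against 34.8, 36.4, 32.0 and 33.3 CPM in DMSO (0.61 ± 0.049 SE in log2 units, adjusted p = 2.02e-08 in edgeR). The groups were clearly apart for both. Ctnna1 (0.34 in log2 units, adjusted p = 6.48e-06 in edgeR) and Ctnnb1, the beta-catenin gene (0.20, adjusted p = 0.00153), rose as well, without overlap. The fifth riser, named after its values were seen, was Ctnnd1, the gene of p120-catenin, which protects cadherins from uptake (0.18, adjusted p = 0.0278). Its call was lost in 11 of 19 other settings, with adjusted p-values up to 0.288. Those included leaving out DMSO replicates 1 (0.0661), 3 (0.0547) or 4 (0.0542) or DS38 replicates 1 (0.0938), 2 (0.0564) or 3 (0.0608).

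Other genes of the cadherin superfamily were examined as well. Of 25 such genes 11 were tested, and 3 rose and 0 fell. The 3 are 27.3% of those tested, against 39.5% of all genes called in either direction and 18.8% called higher. Fat4 and Dchs1, which encode a giant cadherin and the partner it binds on neighbouring cells, had log2 fold changes of 1.19 ± 0.17 SE (edgeR adjusted p = 2.25e-05) and 0.39 ± 0.078 SE (adjusted p = 0.00163). Fat4 was at 5.23, 6.40, 5.88 and 3.75 CPM in DS38, against 2.49, 2.17, 2.01 and 2.7 CPM in DMSO. Cdhr1, known from photoreceptors, rose by 0.66 (adjusted p = 5.82e-07). The Celsr genes, which serve planar polarity, did not pass, except Celsr1 without DS38 libraries 3 and 4 (adjusted p = 0.0250) or without DMSO replicate 4 (0.0464).

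Genes for factors that set promoter choice or looping in the protocadherin arrays were examined too. All 16 were tested, and 1 rose, 4 fell and 11 did not pass. The 5 called are 31.2% of the list, against 39.5% of all genes tested. Ctcf, whose protein brings variable promoters to a distant enhancer, was at 311 ± 0.990 CPM in DS38 and 330 ± 9.83 CPM in DMSO (log2 fold change -0.09, edgeR adjusted p = 0.0722). It is named although it did not pass, a choice made after its values were seen, and it was called lower with the gene length offset (adjusted p = 0.0148). The DNA methyltransferase gene Dnmt3b rose (log2 fold change 0.59, edgeR adjusted p = 0.000161), while Dnmt1 (-0.19, adjusted p = 0.000797) and the cohesin regulator Pds5a (-0.21, adjusted p = 0.00104) fell. Smc3, a cohesin subunit gene named after its values were seen, fell as well (-0.13, edgeR adjusted p = 0.0377). The Smc3 call was lost in 11 of 19 other settings, with adjusted p-values up to 0.278. The cohesin subunit gene Stag1 fell by 0.10 on the log2 scale (adjusted p = 0.0275). Its call was lost with library totals alone (0.358) and without DMSO replicate 3 (0.0523) or DS38 replicates 1 (0.0646), 2 (0.0795) or 3 (0.0802), and also without both libraries numbered 1 (0.0714), both DS38 libraries 1 and 2 (0.177) or both 3 and 4 (0.0999).

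Of 12 tested genes for proteins through which protocadherins signal, 3 rose and 3 fell. That is 50% called, against 39.5% of all genes tested. The kinase genes Fyn (log2 fold change -0.30, edgeR adjusted p = 1.80e-05) and Ptk2 (-0.15, adjusted p = 0.00440) fell, as did the actin regulator gene Nckap1 (-0.16, adjusted p = 0.00562), and Marcks rose (0.18, adjusted p = 0.00539). With library totals alone the calls of Ptk2 (adjusted p = 0.0656) and Nckap1 (0.0719) were lost, the last also without DS38 libraries 3 and 4 (0.0749). The other rises, Cyfip1 and Cyfip2, named after their values were seen, had log2 fold changes of 0.12 and 0.20 (edgeR adjusted p = 0.0304 and 0.0383) and lost their calls in 10 and 11 of 19 other settings. Leaving out DMSO replicate 2 gave 0.109 for Cyfip1 and 0.151 for Cyfip2, and leaving out DMSO replicate 1 or DS38 replicates 1 or 3 also ended both calls (0.0541 to 0.0822). Cyfip1 lost its call without DMSO replicate 4 too (0.0552), and Cyfip2 without DMSO replicate 3 (0.0697) or DS38 replicate 2 (0.161). Of 8 tested genes for proteases that cut cadherins, 2 fell and 0 rose, which is 25% called. Psenen, a subunit gene of gamma-secretase, fell by 0.26 in log2 units (edgeR adjusted p = 0.00186). Among 5 tested genes for repressors that act on cadherin genes in epithelia, Zeb1 rose (0.15, adjusted p = 0.00929), and Zeb2 (-0.20, adjusted p = 0.00193) and Tcf3 (-0.22, adjusted p = 0.000509) fell. These 3 are 60% of the 5. Zeb1's call was lost with the gene length offset (adjusted p = 0.162) and without DS38 libraries 1 and 2 (0.179).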

How the data were processed

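RNA-seq counts per gene for 8 libraries were used as the authors deposited them: raw counts, not normalized, with a gene length. Tools listed without a role in the submitters' processing notes are edgeR, R 4.1.0, Subread 2.0.3 with featureCounts, and STAR 2.7.9a; the builds listed are GRCh38.p13 and GRCm39. Not given in the sources used here: annotation release, strand setting, and treatment of reads matching several genes or places. Symbols and gene types came from GENCODE M21 on GRCm38, which matched 52135 of 55416 identifiers, and promoter windows from RefSeq on GRCm38.p6.

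The members and lists were chosen with earlier results of these data known. Groups were compared with edgeR 4.0.16 (R 4.3.3), with trimmed mean (TMM) scaling, a robust quasi-likelihood fit without covariates, and the package's expression filter (minimum count 10). Genes with a Benjamini-Hochberg adjusted p under 0.05 over all 15133 genes were called. CPM used the scaled library sizes. The scripts were first tested on simulated data. Library totals were 17142397 to 28476019 counts, and floors of 3 counts cover counting error only.

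Any member may be named. Library values are given for called members and for the member of each group with the highest level per length. In the other lists, called genes were named, at most 4 by smallest p, with the exceptions stated. Values of 1 called gene of the protease list are not reported here. Alternatives were DESeq2 1.42.0 size factors and its test, library totals alone, limma 3.58.1 (voom), other filters, an offset for gene length, a replicate block and leaving out libraries. The removal of both libraries numbered 1, of DS38 libraries 1 and 2, and of DS38 libraries 3 and 4 was added after seeing the data.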

Additional observations from a re-analysis of the deposited data

How the results depend on the processing

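The 12 members called higher became 8 to 15 without any 1 library and 10 to 18 under the other planned settings, the 18 with library totals alone. Without DS38 libraries 1 and 2, an alternative chosen after seeing the data, 6 members were called higher, and 1780 of all genes against 2840. Without DS38 libraries 3 and 4, likewise chosen, 1 member was called lower, and 7 genes of the other lists against 11. The 2 called lower became 1 with library totals alone, 4 with the gene length offset and 1 to 2 without any 1 library. Library totals alone gave 6 lower calls in the other lists, against 11. They also moved the higher share of all calls to 64.3%, against 47.5%, and the median log2 fold change of all genes to 0.05, against -0.01; the offset gave 40%. Of the 14 called members, 7 kept the call in every setting that tested them and 7 lost it in at least 1, while 11 uncalled members gained one. Over 892 pairs of member and setting, 35 values changed sign, and 0 of those were called. The cause was not tested. Without both libraries numbered 1, 10 members were called higher and 2 lower, and Pcdh19 (adjusted p = 0.0863) and Pcdhb16 (0.144) lost their calls in edgeR. Same-numbered libraries deviated together only for number 1 (r = 0.33, -0.07, 0.07 and -0.08 for numbers 1 to 4), so the numbers were not taken to pair the samples. With the replicate block, 10 members were called higher and 2 lower, against 2546 and 3048 of all genes, and the calls of Pcdh19 (adjusted p = 0.0518), Pcdhb21 (0.0508), Ctnnd1 (0.0514), Stag1 (0.0725) and Cyfip2 (0.0788) were lost in edgeR. Not every library correlated best with its own number. Low counts limit the 43 members not tested: 2 of them, Pcdhga12 and Pcdh12, were called without the filter.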
